A study of Saccharomyces cerevisiae with 4 samples.

Results

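The phosphate regulon and polyphosphate genes described here are 8 Saccharomyces cerevisiae genes, taken by name from the 6207 yeast rows of an array table. They are PHO84 (YML123C), which encodes the high-affinity phosphate transporter, the acid phosphatase genes PHO5 (YBR093C), PHO3 (YBR092C), PHO11 (YAR071W) and PHO12 (YHR215W), and VTC1 (YER072W), VTC3 (YPL019C) and VTC4 (YJL012C), which encode subunits of the vacuolar polyphosphate polymerase. The treated cells were a hog1 mutant exposed for 3 h to Zymolyase 100T at 5 units/ml, and the untreated cells were the other part of the same divided culture, kept without the enzyme for that time. All cells carried the hog1 mutation, which alters Hog1, the protein kinase of the osmotic stress pathway, and the medium was YEPD, a rich one, at 24 °C. Zymolyase is an enzyme preparation that digests beta-1,3-glucan of the yeast cell wall. The labels do not give the hog1 allele or the strain background, HOG1 had a value on 0 of the 4 arrays and so gives no check of the strain, and no wild-type array was analysed here.

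Yeast senses phosphate through a kinase complex of the cyclin Pho80 and the kinase Pho85. When phosphate is plentiful this complex phosphorylates the transcription factor Pho4, which then leaves the nucleus. When phosphate is scarce the inhibitor Pho81 holds the complex in check, and Pho4 with its partner Pho2 switches on genes for uptake, for secreted phosphatases that free phosphate outside the cell, and for the store of phosphate as polyphosphate in the vacuole. The rich medium of this study holds phosphate, and the labels name no change in it.

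Each of the 4 two-colour arrays compared treated with untreated RNA directly, and 2 cultures gave 2 arrays each with the dyes swapped. The treated RNA carried Cy5 on arrays 2 and 4 and Cy3 on arrays 1 and 3. Which arrays came from the same culture is not stated. Values are the authors' normalized log2 ratios, turned by dye so that all read treated over untreated. That direction is likely but not stated: after turning, all 9281 values below 0 are logarithms of a linear ratio written with 4 decimals, so the numerator is shared by the 4 arrays, and the mating and filamentation genes PRM1, FIG1 and PGU1 are at 4.15 or above on each. With the other numerator every log2 ratio below would change its sign and keep its size, each fold and percentage would become its inverse, and ranks and shares of genes higher or lower would swap ends. The table held values for 2794, 4162, 5322 and 5127 yeast rows on arrays 1 to 4. The 2715 genes with a value on all 4 were tested, which is 43.7% of the rows and includes all 8 genes. RNA came from whole cultures, so fewer cells with a transcript and less of it per cell cannot be told apart.

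None of the 8 genes passed the test, while PHO84 had the lowest mean of them and lay below 0 on every array. By limma on culture means, 0 of 8 were called at an adjusted p under 0.05, where 60 of all 2715 genes were called, or 2.21% (2.03% higher and 0.184% lower). The count of 60 was 22 without array 2 and 129 without array 3, and the 8 genes were uncalled in both of those fits. At an unadjusted p under 0.05, PHO84, VTC1 and VTC3 stood lower in treated cells, 3 of 8 against 6.59% of all tested genes in that direction, and 0 of 8 stood higher, against 8.14%. That count of 3 was 1, PHO84 alone, without array 2, with each array centred on its median, over the 5107 rows that had a value in both dye orientations, and on the Cy3-treated arrays alone. It was 2 without any 1 of the other arrays, PHO84 with VTC3 or with VTC1. The same share of genes, 3 of 8, lay below 0 on all 4 arrays (PHO84, PHO11 and VTC1), against 15.2% of all tested genes, and 0 of 8 lay above 0 on all 4, against 9.83%. The median of the 8 means was −0.14, beside −0.05 over all tested genes. It was −0.0685 without array 4, −0.22 without array 3, −0.27 on the Cy5-treated arrays and −0.0267 on the Cy3-treated arrays.

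**Figure D1:**
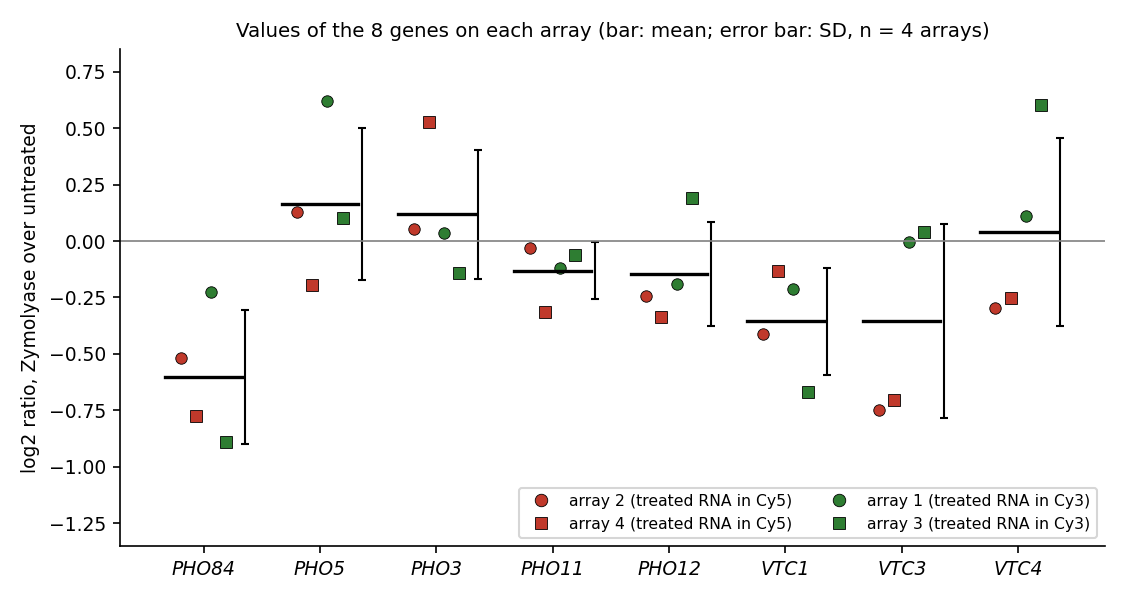
Log2 ratio of treated over untreated cells (vertical axis) for the 8 genes on each array, with arrays 2 and 4 in red, arrays 1 and 3 in green, the mean as a bar and the SD over 4 arrays as an error bar. PHO84, PHO11 and VTC1 lie below 0 on all 4 arrays, and the red and green values of PHO3, PHO12, VTC3 and VTC4 do not overlap.

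PHO84 encodes the proton-coupled transporter that brings phosphate into the cell when it is scarce, and its transcript is a standard readout of Pho4. Its log2 ratios were −0.23, −0.52, −0.89 and −0.78 on arrays 1 to 4. All 4 values were below 0, with array 1 the closest to 0 and array 3 the farthest. The SD over arrays, here and below, mixes the spread between cultures with that between hybridisations and between dye orientations. The mean of −0.60 ± 0.30 (SD, n = 4 arrays) corresponds to 65.8% of the untreated level (152% with the other numerator), and the 95% interval of the culture means ran from −1.02 to −0.19, or 0.493-fold to 0.879-fold. With adjusted p = 0.228 by limma the gene was not called. In the fit on culture means, its call depends on which arrays shared a culture, which is unknown. With arrays 1 and 2 as one culture and 3 and 4 as the other, the culture means were −0.37 and −0.83, and this pairing set the p-value. With arrays 1 and 4, and 3 and 2, as the cultures, they were −0.50 and −0.71, with adjusted p = 0.00205 by limma, in a fit that called 2.76% of all tested genes lower. That fit gave all genes 1 common variance (infinite prior degrees of freedom, against 4.13 for the first pairing). Its p-value therefore does not use the spread of PHO84 itself. An exact two-sided sign-turn test over the 4 arrays gave p = 0.125, the smallest that 4 arrays allow, and it takes arrays of a culture as independent.

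PHO84 had rank 19 from the lowest mean among the 2715 tested genes, which would be rank 19 from the highest with the other numerator. On the single arrays, 31.5%, 5.69%, 1.28% and 4.12% of the rows with a value lay below it on arrays 1 to 4, so array 1 places it in the body of the distribution and the other 3 near its lower end. The smallest mean among the 60 called genes was 0.85 in size, larger than that of PHO84. The gene table lists an antisense RNA that overlaps PHO84, and the labels do not say which strand the probes read, so sense and antisense transcripts cannot be told apart. The 3 genes outside the 8 whose values were most like those of PHO84 over the 4 arrays were SUN4, RRP42 and CYC1, by root mean square difference. SUN4, which encodes a cell wall protein, differed by 0.13 and had a mean log2 ratio of −0.63. RRP42, which encodes an RNA exosome subunit, differed by 0.18 and had a mean of −0.51, and CYC1, which encodes cytochrome c, differed by 0.19 and had a mean of −0.70. None of these 3 was called (adjusted p = 0.139 for SUN4, 0.251 for RRP42 and 0.115 for CYC1 by limma).

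The 4 acid phosphatase genes lay close to 0, 2 with a mean above it and 2 below. PHO5, the main phosphate-repressible secreted acid phosphatase and another standard readout of Pho4, had log2 ratios of 0.62, 0.13, 0.10 and −0.20 on arrays 1 to 4. Array 1 was the highest and array 4 alone was below 0. The mean was 0.16 ± 0.34 (SD, n = 4 arrays), a 1.12-fold ratio, with a 95% interval of 0.846-fold to 1.48-fold and adjusted p = 0.661 by limma. Without array 1 the mean was −0.0002, so its distance from 0 rests on that array. Any mean given without 1 array averages culture means over both pairings, and is not the plain mean of the arrays left.

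PHO3 encodes the acid phosphatase that is made when phosphate is plentiful, and it is repressed by thiamine rather than by phosphate. It had values of 0.04, 0.05, −0.14 and 0.53 on arrays 1 to 4. Only array 4 lay clearly away from 0. The mean was 0.12 ± 0.29 (SD, n = 4 arrays), with an interval of 0.86-fold to 1.37-fold and adjusted p = 0.732 by limma, and it was −0.03 without array 4. PHO5 and PHO3 stand next to each other in the gene table. On the 4 arrays PHO5 exceeded PHO3 by 0.58, 0.07, 0.24 and −0.72, so the order of these neighbours changed between arrays.

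PHO11 and PHO12 encode repressible acid phosphatases that are nearly identical to each other. PHO11 had −0.12, −0.03, −0.06 and −0.31 on arrays 1 to 4, all below 0 and the lowest on array 4. PHO12 had −0.19, −0.24, 0.19 and −0.34, with array 3 alone above 0. Their means were −0.13 ± 0.13 and −0.15 ± 0.23 (SD, n = 4 arrays each), with adjusted p = 0.699 and 0.665 by limma. The intervals, 0.725-fold to 1.15-fold for PHO11 and 0.716-fold to 1.14-fold for PHO12, include no change. Among the 28 pairs that the 8 genes form, PHO11 and PHO12 had the smallest root mean square difference over the arrays, 0.17, against 0.48 for PHO5 and PHO3. The 4 acid phosphatase genes share an annotated length of 1404 bases. They belong to 1 family of related sequences, and whether labelled cDNA of one bound the probe of another was not tested.

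The VTC complex makes polyphosphate from ATP at the vacuolar membrane, with Vtc4 as its catalytic subunit. Of its 3 genes measured here, VTC1 and VTC3 had means below 0 of nearly the same size, and VTC4 had a mean near 0. VTC1, the small membrane subunit, had log2 ratios of −0.21, −0.41, −0.67 and −0.13 on arrays 1 to 4. All were below 0, and neither dye orientation held both of the lower values. Its mean was −0.36 ± 0.24 (SD, n = 4 arrays), 78.1% of the untreated level (128% with the other numerator), with an interval of 0.621-fold to 0.982-fold and adjusted p = 0.317 by limma.

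VTC3, which encodes a subunit with a phosphate-sensing SPX domain, had −0.00, −0.75, 0.04 and −0.71 on arrays 1 to 4. The 2 arrays with treated RNA in Cy5 were low, and the 2 with treated RNA in Cy3 were at 0. Its mean of −0.35 ± 0.43 (SD, n = 4 arrays) had an interval of 0.623-fold to 0.981-fold and adjusted p = 0.316 by limma. The mean was −0.16 without array 2, −0.17 without array 4, −0.54 without array 1 and −0.55 without array 3. VTC4 was split by dye in the same sense, with log2 ratios of −0.30 and −0.25 in the Cy5 orientation (arrays 2 and 4), against 0.11 and 0.60 in the Cy3 orientation (arrays 1 and 3). Its mean was 0.04 ± 0.42 (SD, n = 4 arrays), with an interval of 0.802-fold to 1.32-fold and adjusted p = 0.912 by limma. VTC3 lay below VTC4 on all 4 arrays, by 0.11, 0.45, 0.56 and 0.45, while each moved by more than that between dye orientations.

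The mean on the Cy5-treated arrays less the mean on the Cy3-treated arrays was −0.75 for VTC3 and −0.63 for VTC4. Over all tested genes this difference ran from −0.85 at the 5th to 0.63 at the 95th percentile, and 89.9% and 84.8% of the genes had a difference smaller in size than those of VTC3 and VTC4. For PHO84 the orientations gave −0.65 on the Cy5-treated and −0.56 on the Cy3-treated arrays, a difference of −0.09, and 16.2% of genes had a smaller one. PHO11 differed by −0.08 and VTC1 by 0.17. PHO84, PHO11 and VTC1 were thus the members whose ratio moved least with the dye, and these 3 were also below 0 on every array. For VTC3 the mean was −0.73 on the Cy5-treated arrays and 0.02 on the Cy3-treated arrays. The part of the dye in the values of VTC3, VTC4, PHO5, PHO3 and PHO12 was not tested.

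**Figure D2:**
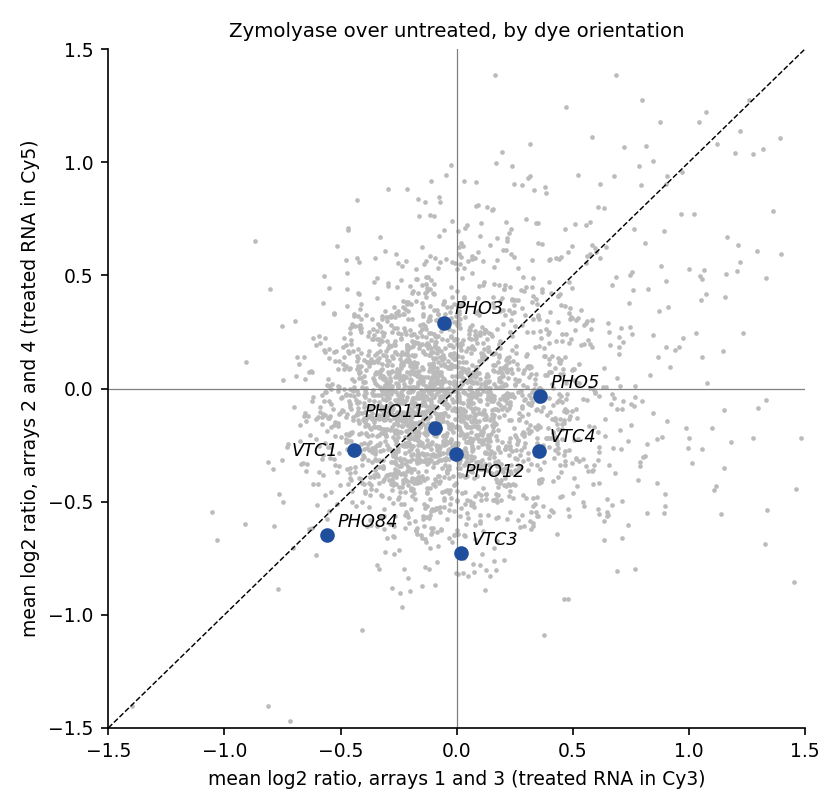
Mean log2 ratio on arrays 2 and 4 (treated RNA in Cy5, vertical) against that on arrays 1 and 3 (treated RNA in Cy3, horizontal) for the tested genes in grey and the 8 genes in blue, with 62 tested genes outside the axis limits of 1.5. PHO84 lies near the dashed line of equal values at −0.65 and −0.56, while VTC3 (−0.73 and 0.02) and VTC4 (−0.27 and 0.36) lie off it.

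In order of their means from the lowest, the genes were PHO84, VTC1, VTC3, PHO12, PHO11, VTC4, PHO3 and PHO5. The steps between neighbours were all smaller than the SD over arrays of at least one of the 2 genes, so adjacent places in this order are not resolved. Across the order, PHO84 lay below 6 of the other 7 genes on all 4 arrays. The exception was VTC3, which was lower than PHO84 on array 2 by 0.23. The difference between PHO84 and PHO5, which Pho4 activates together when phosphate is scarce, was −0.85, −0.65, −0.99 and −0.58 on arrays 1 to 4, a mean of −0.77 ± 0.19 (SD, n = 4 arrays). It kept its sign on every array, and its SD was smaller than that of either gene alone. Neither trait was particular to this pair. Of the 28 pairs that these genes form, 10 kept 1 sign on all 4 arrays. PHO3 less VTC1 also kept its sign, with an SD of 0.17 against 0.29 for PHO3 and 0.24 for VTC1. PHO84 less PHO5 was larger in size on the Cy3-treated arrays (−0.85 and −0.99) than on the Cy5-treated arrays (−0.65 and −0.58). These differences compare changes, not transcript levels, and were described after the values were seen.

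**Figure D3:**
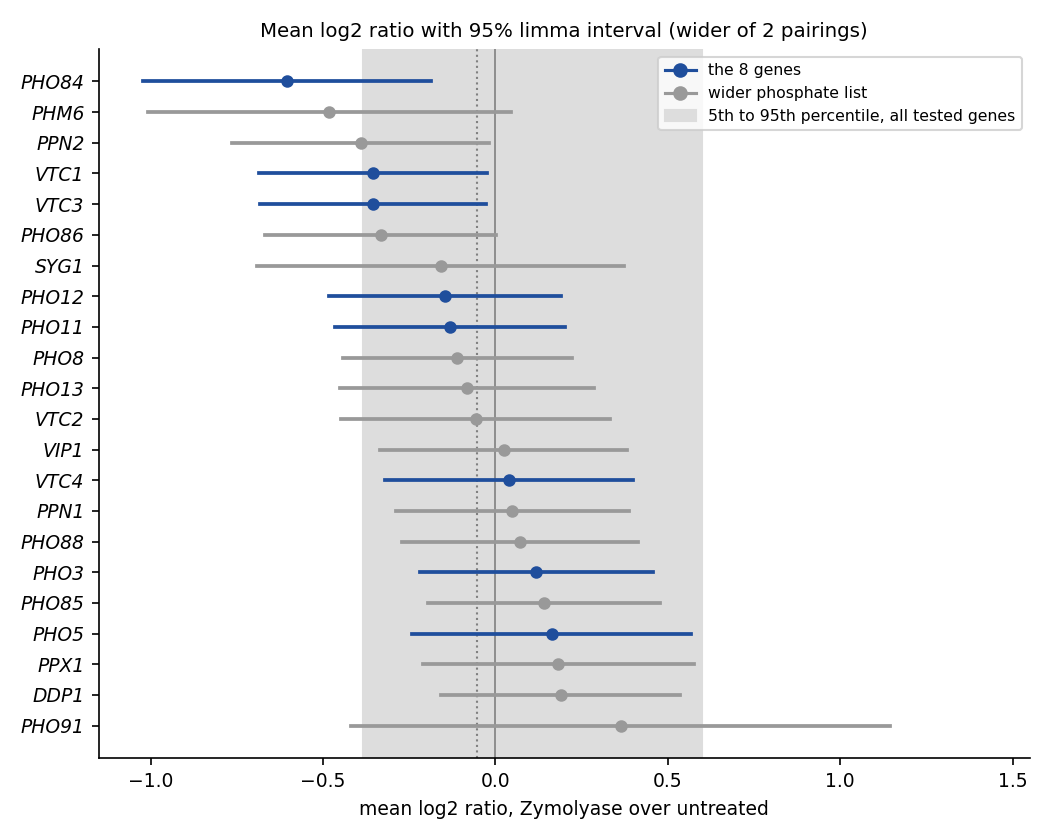
Mean log2 ratio of treated over untreated cells with the 95% interval from limma for the 8 genes (blue) and the 14 tested genes of the wider phosphate list (grey), over the range from the 5th to the 95th percentile of all 2715 tested genes (shaded, −0.38 to 0.60) with their median of −0.05 (dotted). PHO84 and PHM6 have the lowest means, and both intervals reach past −1.

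A wider list of 32 genes of phosphate sensing, transport, release and storage was read beside the 8. Of these, 14 had a value on all 4 arrays, 12 on 1 to 3 arrays, and 6 on none (PHO87, PHO92, GIT1, DIA3, PHM7 and CTF19). By limma 0 of the 14 were called, against 2.21% of all tested genes. At an unadjusted p under 0.05, 1 of the 14 stood lower (PPN2), against 6.59% of all tested genes in that direction. The means were above 0 for 7 and below 0 for 7, where 59.4% of all tested genes had a mean below 0. Their median was −0.02, beside −0.05 over all tested genes. PHM6, PPN2 and PHO86, 3 of the 14, lay below 0 on all 4 arrays, against 15.2% of all tested genes.

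Of the regulators, PHO85, the kinase gene, had a value on every array, with −0.02, 0.16, 0.05 and 0.37 on arrays 1 to 4 and a mean of 0.14 ± 0.17 (SD, n = 4 arrays, adjusted p = 0.676 by limma). The other regulators had values on 3 arrays or fewer and were not tested in this fit. PHO80, the cyclin gene, had 0.16, −0.76 and −0.23 on arrays 2 to 4. PHO4, the transcription factor gene, had 1.90 on array 3 and −0.16 on array 4, so its values do not give a direction. PHO2 had −0.22 and 0.04 on arrays 3 and 4, and PHO81, the inhibitor gene, had 0.01 and 0.16 there.

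SPL2 encodes a Pho4-induced protein that restrains low-affinity phosphate uptake. It had −1.14 on array 3 and −1.27 on array 4, the only arrays that gave it a value. Both were low, on one array of each dye orientation. In the fit over 5107 rows that had a value in both dye orientations, its mean of −1.20 had an adjusted p of 0.00851 by limma, and 0.176% of the rows were called lower there. That p could be had from 1 of the 2 pairings, the one in which arrays 3 and 4 came from different cultures. If both arrays came from 1 culture there is no replicate of this value.

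PHM6, a further gene under Pho4 whose product is little studied, had −0.21, −0.02, −0.98 and −0.72 on arrays 1 to 4. Arrays 3 and 4 were low and array 2 was at 0. Its mean of −0.48 ± 0.44 (SD, n = 4 arrays) had adjusted p = 0.36 by limma, and adjusted p = 0.025 with arrays 1 and 4, and 3 and 2, as the cultures. The latter fit gave all genes 1 common variance, so its p-value does not use the spread of PHM6 itself.

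**Figure D4:**
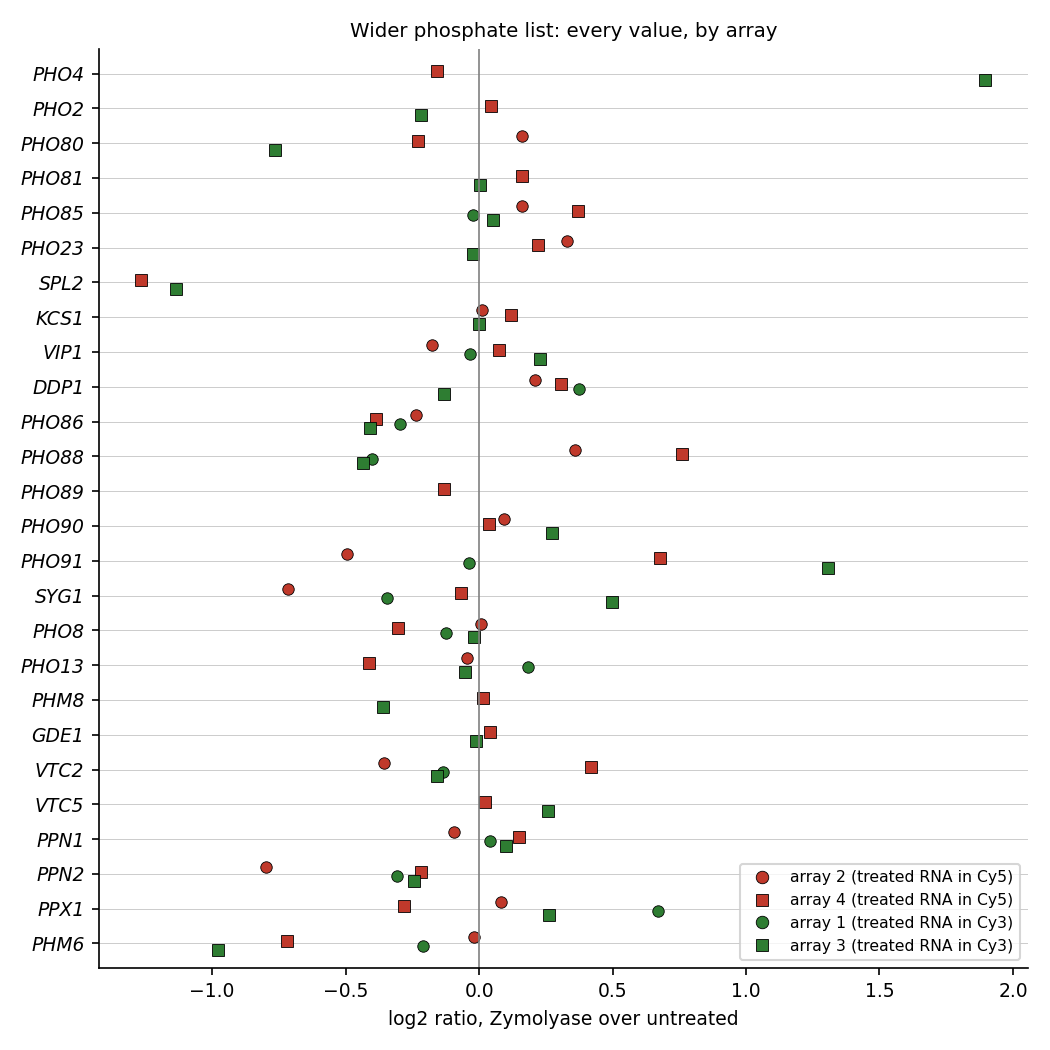
Every log2 ratio of treated over untreated cells (horizontal axis) for the 26 genes of the wider phosphate list with a value on at least 1 array, with arrays 2 and 4 in red and arrays 1 and 3 in green. SPL2 lies at −1.27 and −1.14, and PHO4 has 1.90 on array 3 and −0.16 on array 4.

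Among the transport genes, PHO86, which encodes a protein needed for Pho84 to leave the endoplasmic reticulum, had −0.30, −0.24, −0.41 and −0.39 on arrays 1 to 4. These values were close to one another. The mean was −0.33 ± 0.08 (SD, n = 4 arrays), 79.4% of the untreated level (126% with the other numerator), and was not called (adjusted p = 0.341 by limma). PHO91, a vacuolar phosphate transporter gene, had −0.04, −0.49, 1.31 and 0.68, with both signs and a mean of 0.36 ± 0.79 (SD, n = 4 arrays). PHO89, the sodium-coupled high-affinity transporter gene, had −0.13 on array 4 and no other value.

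Of the genes that store or break down polyphosphate, PPN2, a vacuolar endopolyphosphatase gene, had −0.31, −0.80, −0.24 and −0.22 on arrays 1 to 4. All were below 0, with array 2 apart from the others. Its mean was −0.39 ± 0.27 (SD, n = 4 arrays, adjusted p = 0.323 by limma). VTC2, the further SPX-domain subunit gene of the VTC complex, had −0.14, −0.36, −0.16 and 0.42, a mean of −0.06 ± 0.33 (SD, n = 4 arrays). PPX1, which encodes the cytosolic exopolyphosphatase, had a mean of 0.18 ± 0.40, and DDP1, which encodes a phosphatase of inositol pyrophosphates and related compounds, 0.19 ± 0.23 (SD, n = 4 arrays each). PHO8, the vacuolar alkaline phosphatase gene, had −0.12, 0.01, −0.02 and −0.31, with a mean of −0.11 ± 0.14 (SD, n = 4 arrays). None of these genes was called.

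Under 15 other settings the mean of PHO84 stayed between −0.71 and −0.54, and that of VTC1 between −0.44 and −0.26. Only centring, scale, 1 dye orientation alone and leaving out 1 array could move these means. The remaining settings change the test and keep the mean by construction. PHO84 was called in 2 of the 15, the pairing above and a fit with the culture as a random block, which called 2.76% and 1.1% of all tested genes lower. The random-block fit kept the larger p of the 2 pairings, so the call under that model did not depend on the pairing. The other 7 genes were called in none. The means of VTC3, VTC4, PHO5 and PHO3 changed sign in at least 1 setting.

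**Figure D5:**
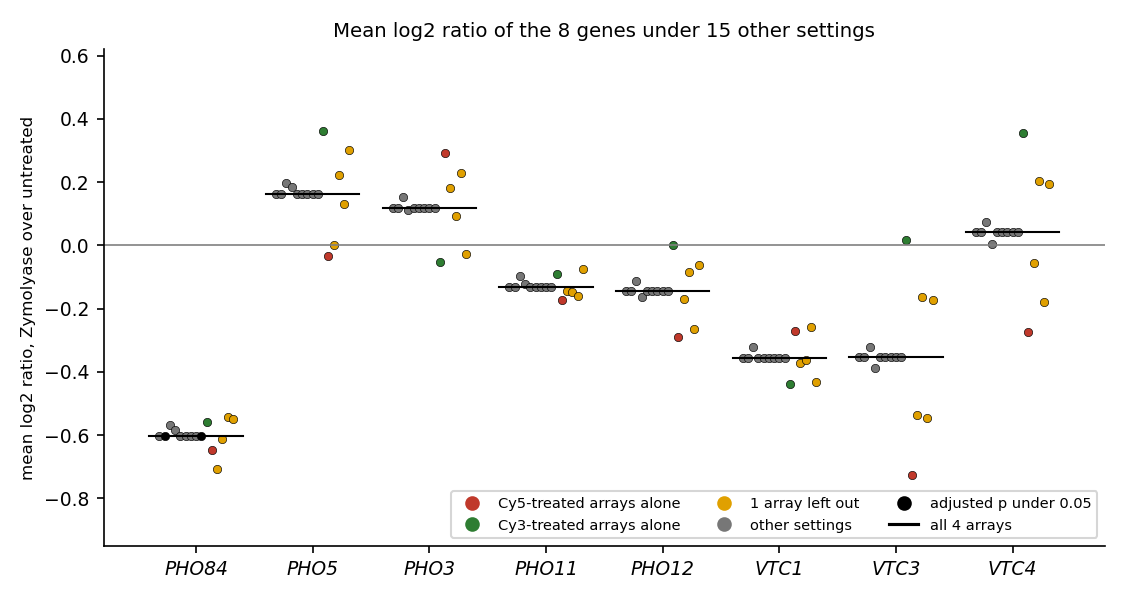
Mean log2 ratio of treated over untreated cells for the 8 genes under 15 other settings (points) and over all 4 arrays (bars), coloured by kind of setting, with black points for an adjusted p under 0.05. PHO84 stays between −0.71 and −0.54 and holds the 2 black points, while VTC3 runs from −0.73 to 0.02 and VTC4 from −0.27 to 0.36. Settings other than centring, scale, 1 dye orientation or 1 array left out share the mean of the bar by construction.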

How the data were processed

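The authors deposited 1 table of log2 ratios for 4 two-colour arrays. How the images were read, corrected and normalized, why some rows are blank, which condition is the numerator and which genome build was used: these are not given in the sources used. No spot intensities were used, so depth over background is unknown, and the number of arrays limits the precision. Base 2 was settled from the values: every turned value below 0 matched a linear ratio of 4 decimals to the deposited digits, where 56.5% would by chance. Signs of arrays 2 and 4 were turned, and 2 control rows were left out. The medians of the 4 columns, between −0.08 and 0.02 as deposited, were kept.

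Symbols came from NCBI RefSeq's table of assembly R64, which matched 5654 of the 6207 rows, all 8 genes and all 32 of the wider list. Array pairs were averaged to 2 culture means and tested against 0 with limma 3.58.1 (R 4.3.3) for both possible dye-swap pairings. The larger p was kept and adjusted by Benjamini-Hochberg over all 2715 genes, with calls under 0.05. The fit was also run on simulated data. The changes planted there were far larger than the means of the 8 genes, so that run does not cover changes of their size. The 95% interval is the wider of the pairings. Alternatives were the pairing, centring, scale, row filter, variance model, unit of replication, dye orientation and leaving out each array. The members, lists and tests were chosen with earlier results of these data known. From the wider list, PHO4, PHO2, PHO80, PHO81, PHO85, PHO89, SPL2, VTC2, PHO8, called genes and the 6 other tested genes with the largest mean in size were named. Genes without a value and single genes behind small counts were named after their values were seen. Nearest profiles were the 3 genes with the smallest root mean square difference.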

Additional observations from a re-analysis of the deposited data

Results flagged for a closer look

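Among the 22 genes of both lists with a value on all 4 arrays, 1 gene stood out by a single array, and about 1.1 would do so by chance. PPN2 had a log2 ratio of −0.80 on array 2, against −0.31 to −0.22 on the other 3 arrays.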

How the results depend on the processing

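Of 120 mean ratios of the 8 genes under 15 alternatives, 110 kept their direction and stayed uncalled. Many of these directions could not change. The mean is the same by construction under either pairing alone, the row filter and the robust variance model. The same holds for 4 arrays with or without a dye term and for the random block. PHO84 kept −0.60 and was called with arrays 1+4 and 3+2 as pairs (adjusted p = 0.00205 by limma) and with the culture as a random block (adjusted p = 0.0354, in a fit that called 1.1% of genes lower), against a highest adjusted p of 0.403 without array 2. The other 8 changed sign without a call. PHO3 was −0.0528 and VTC3 0.0179 with Cy3-treated arrays alone, and PHO5 was −0.0338 and VTC4 −0.27 with Cy5-treated arrays alone. Without 1 array, VTC3 ranged from −0.55 to −0.16, PHO3 from −0.0261 to 0.23, PHO5 from −0.0002 to 0.30 and VTC4 from −0.18 to 0.20, with VTC4 at −0.06 without array 1. The 4 genes PHO84, VTC1, PHO11 and PHO12 kept their sign in all 15. Genes called over the whole table numbered 60 (91.7% higher) and moved to 277 for pairs 1+4 and 3+2 (72.9% higher), 97 for 4 arrays without and 119 with a dye term, 149 with the random block and 141 for the Cy3-treated arrays alone. Without 1 array they ranged from 22 to 129. Called genes of the wider list moved from 0 to 1 for pairs 1+4 and 3+2 (PHM6) and to 1 with rows of each dye orientation (SPL2). Its median of −0.02 moved to 0.0236 with those rows, to 0.0399 on the Cy3-treated and to −0.0746 on the Cy5-treated arrays. The fit for pairs 1+4 and 3+2 gave all genes 1 common variance, with infinite prior degrees of freedom, against 4.13 for pairs 1+2 and 3+4. The cause of these moves was not tested. In fits without 1 array, 1 culture mean is a single array whose dye effect does not cancel. Means of those fits average the culture means over both pairings, so the arrays left are weighted unequally. The array left in the dye orientation of the omitted one has the least weight. A mean near 0 can therefore take a sign that the plain mean of those arrays would not.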
